A study of Mus musculus with 6 samples.

Results

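Macrophages clear dying cells, modified lipoproteins and debris through surface receptors, and the transcripts of 10 genes of this kind were followed in sorted colon macrophages. The genes were Mertk, Axl, Gas6, Timd4, Cd36, Msr1, Stab1, Marco, Scarb1 and Mfge8, chosen by name. All 10 were found among the 25124 gene rows of the table, and all 10 passed the filter on low values (1 TPM or more on average in either group, where TPM is a level scaled for exon length and depth). The study sequenced polyadenylated RNA from 3 wild type and 3 transgenic samples, and asked how overexpression of E4BP4 changes these cells. E4BP4, the product of Nfil3, is a basic leucine zipper transcription factor.

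The wild type group consisted of C57BL/6 mice, and the transgenic group of C57BL/6 mice that overexpress E4BP4 in macrophages. Mice were 8 weeks old per the design text. Both groups carried the same injury: 2.0% dextran sulfate sodium (DSS), which damages the colonic epithelium, was in the drinking water for 7 days. Plain water followed for 7 days, and tissue was taken on day 14. No group without DSS was analysed here, so every level below is one after colitis. The promoter that drives the transgene is not given in the sources used here, nor is the sorting gate or whether each sample came from 1 mouse. The titles and the design text name E4BP4, while the genotype field of transgenic replicates 2 and 3 ends in another digit; the titles were followed. Because nothing states that the samples of a group are separate animals, p-values speak to the spread among these libraries alone, which may be technical.

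The uptake of an apoptotic cell begins when its exposed phosphatidylserine is recognised. MERTK and AXL, receptor tyrosine kinases of the TAM family, bind it through bridging proteins, GAS6 for both and protein S for MERTK. MFG-E8 bridges it to integrins, and TIM-4 (Timd4) and stabilin-1 (Stab1) bind it directly. Scavenger receptors recognise oxidised or acetylated lipoproteins and other polyanionic ligands. SR-A1 (Msr1) and MARCO belong to class A, and CD36 and SR-BI (Scarb1) to class B. In the gut, resident macrophages use these receptors to remove dying epithelial and inflammatory cells with little inflammation.

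Between 13973424 and 15063958 reads per library, 79.5% to 81.3% of the totals in the headers, could be recovered as reads in genes from the TPM values. Nfil3 itself stood at 117 to 120 TPM in wild type and 133 to 141 TPM in transgenic libraries, a ratio of means of 1.14. The sorted cells carried macrophage markers at high level, with Csf1r at 983 and Adgre1 at 361 TPM in wild type libraries. Markers of other cells were present as well. The summed level of 14 neutrophil markers was 1315 to 1355 TPM in wild type and 535.0 to 588 TPM in transgenic libraries. Most of it was S100a8 (409 and 154 TPM) and S100a9 (439 and 187 TPM). Of 12 tested 9 were lower, while Csf3r (58.9 and 56.8 TPM), Cd177 (13.2 and 14.4 TPM) and Padi4 (6.35 and 6.16 TPM) were not called. The summed level of 13 epithelial markers was 1131 to 1139 and 665 to 670 TPM, with 9 lower and 1 higher (Tff3, 47.5 to 58.2 TPM). Car1 alone went from 497 to 164 TPM, while Muc2 stood at 35.9 and 36.1 TPM. The 13 fibroblast and smooth muscle markers summed to 204 to 208 and 156 to 161 TPM. The 13 endothelial markers summed to 143 to 146 and 131 to 135 TPM. Most of the endothelial sum was Lyve1, which rose from 86.3 to 95.7 TPM, while 7 of the 10 tested endothelial markers fell. Of 10 tested dendritic cell markers 5 were higher and 1 lower (sums of 76.8 to 82.6 and 104 to 114 TPM). Batf3 alone went from 36.3 to 57.3 TPM, while Zbtb46, Flt3, Ccr7 and Cd209a were not called. Of 10 tested T and NK cell markers 4 were higher (sums of 128 to 135 and 145 to 158 TPM). Most of the T and NK cell sum was Cd4 (87.4 and 89.6 TPM), while Cd3e stood at 6.30 and 7.02 TPM, neither of them called. Of 9 macrophage markers 4 were higher and 4 lower, with sums of 13023 to 13095 and 12628 to 12669 TPM. B and plasma cell markers had 1 of 8 higher and 1 lower, and mast cell and eosinophil markers 1 of 5 tested higher, with Epx at 0 in all libraries. Beside these counts, 8.71% of all tested genes were called higher and 13.2% lower (limma adjusted p below 0.05). In bulk RNA, fewer cells of a type and less RNA per cell cannot be told apart.

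The proximal promoters of the genes that stand at the centre of the results are shown first, because E4BP4 acts by binding DNA. Each is the 250 bases before the annotated start, 5′ to 3′ on the gene's strand, from RefSeq (GRCm38.p6), for Cd36 (chr5:17835897-17836146, minus strand), Axl (chr7:25788734-25788983, minus strand) and Mertk (chr2:128698665-128698914, plus strand). Capitals mark GC boxes (GGGCGG on either strand) and CCAAT boxes (CCAAT on either strand), which were picked after the windows had been seen.

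Cd36: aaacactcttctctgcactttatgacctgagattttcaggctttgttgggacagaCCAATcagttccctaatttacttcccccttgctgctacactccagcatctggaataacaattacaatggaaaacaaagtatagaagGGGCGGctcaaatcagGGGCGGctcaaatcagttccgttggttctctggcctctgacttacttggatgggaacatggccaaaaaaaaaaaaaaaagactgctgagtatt

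Axl: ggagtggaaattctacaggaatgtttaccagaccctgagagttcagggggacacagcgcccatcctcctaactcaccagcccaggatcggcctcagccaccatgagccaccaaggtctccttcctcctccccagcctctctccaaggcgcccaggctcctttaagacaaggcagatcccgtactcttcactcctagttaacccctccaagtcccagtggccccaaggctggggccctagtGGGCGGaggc

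Mertk: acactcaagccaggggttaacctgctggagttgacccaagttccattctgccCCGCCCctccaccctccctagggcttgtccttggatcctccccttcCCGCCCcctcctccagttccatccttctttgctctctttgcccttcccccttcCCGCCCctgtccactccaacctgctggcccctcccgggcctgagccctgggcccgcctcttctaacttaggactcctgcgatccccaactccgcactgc

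The Cd36 window held 2 GC boxes, whose first bases lay 109 and 93 bases before the start within a repeated stretch, and a CCAAT box 195 bases before it. In the Axl window a GC box began 10 bases before the start. The Mertk window held 3 GC boxes, at 198, 152 and 99 bases. The Cd36 window belongs to a start site 13896 bases from the 5′ end of the transcript that its TPM row counts, so it is 1 of several promoters of that gene. Windows were found for 8 of the 10 genes. None of the 8 held the E4BP4 element, TTACGTAA or TTATGTAA on either strand between 250 bases before and 50 after the start, and 1.06% of 32851 such windows did. With any letter at its middle position (TTANGTAA, which contains both) it was in 0 of 8 and in 2.32% of all windows. A pair of GAAA words spaced by 2 bases, as in interferon-stimulated elements, was in 0 of 8 and in 3.44% of all. Direct repeats of AGGTCA spaced by 1 or 4 bases, which PPAR and LXR receptors bind, were in 0 of 8, in 0.0396% and in 0.0152% of all. GC boxes were in 5 of the 8 windows (Mertk, Cd36, Axl, Mfge8 and Gas6) against 35.7% of all. CCAAT boxes were in 3 (Cd36, Timd4 and Stab1) against 37.4%. The AP-1 element TGANTCA (N is any letter) and the TATA box TATAAA, added at the same stage, were in 0 of 8. They were in 7.81% and 13.6% of all windows. The STAT element TTCNNNGAA was in 0 of 8 and in 8.3% of all. A match is only a match of letters, and sites farther from the start were not searched.

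The comparison of transgenic with wild type libraries asked which of these receptors and ligands differ in level. Of the 10 genes 4 rose (Cd36, Timd4, Axl and Gas6), 3 fell (Msr1, Mfge8 and Mertk) and 3 did not pass the test (Stab1, Scarb1 and Marco). The largest change was in Cd36, 2.27-fold higher in transgenic libraries. The genes did not move as 1 block: within the TAM receptors, the bridging proteins and the class B receptors alike, one gene differed in direction or size from its partner. A gene was called at an adjusted p below 0.05 from limma, Benjamini-Hochberg adjusted over all 12633 tested genes, on log2(TPM + 1). Over all tested genes, 8.71% were called higher and 13.2% lower, or 21.9% in either direction. The median difference in log2(TPM + 1) was 0.08 over the 10 genes and -0.01 over all tested genes, and the median absolute difference was 0.31 and 0.13. Groups did not overlap for 8 of the 10 genes, against 39.3% of tested genes. Scaling to a common upper quartile moved the split of called genes from 39.8% to 51.4% higher, and all 10 genes kept their direction under it.

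**Figure D1:**
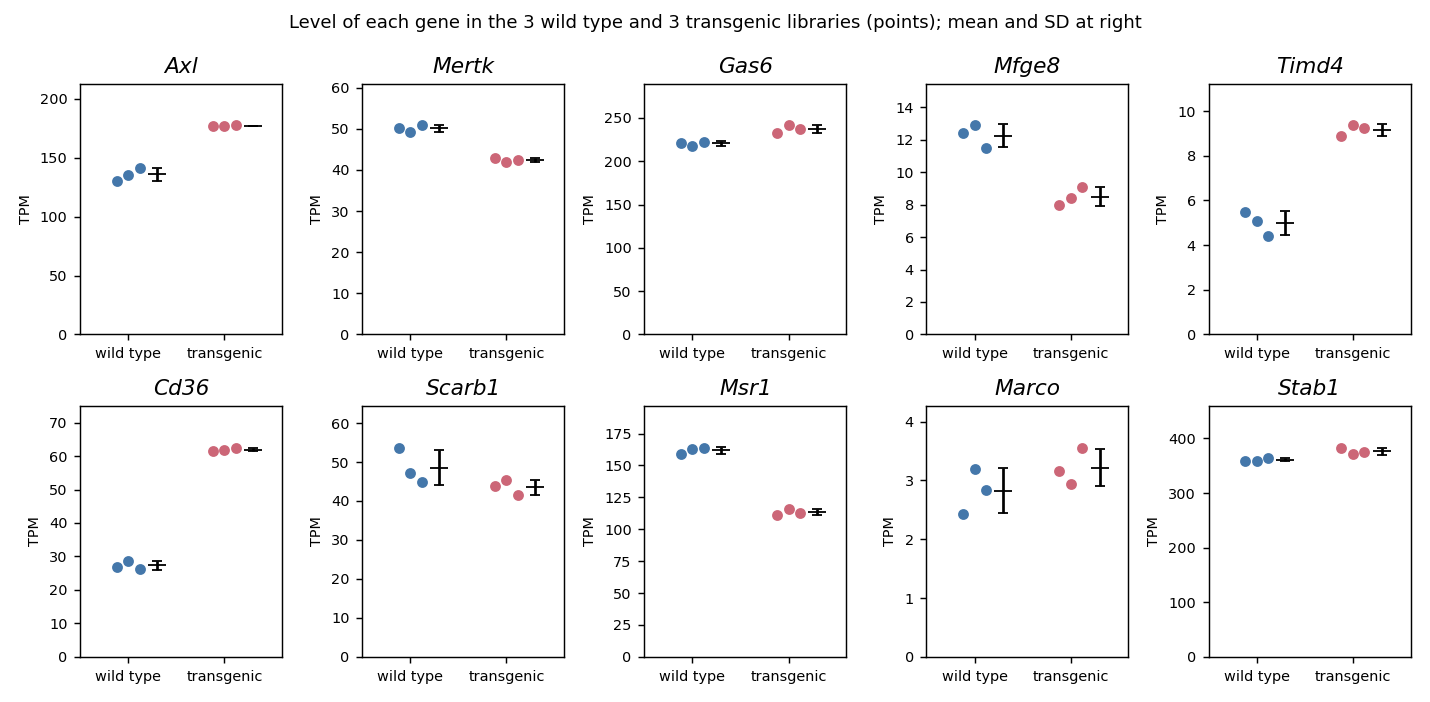
TPM (vertical axis, from 0) of each of the 10 genes in the 3 wild type libraries (blue points) and 3 transgenic libraries (red points), with the mean and SD as a black bar beside them. Cd36 and Timd4 rise clear of the wild type points, Msr1, Mfge8 and Mertk lie below them, and Marco and Scarb1 overlap.

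Axl, the TAM receptor known for its induction by interferon and other inflammatory signals, measured 131, 136 and 141 TPM in wild type libraries. It measured 177, 177 and 177 TPM in transgenic ones. All transgenic libraries were above all wild type ones, with means of 136 ± 5.38 and 177 ± 0.401 TPM (SD, n = 3 each), a ratio of 1.30. The difference in log2(TPM + 1) was 0.38 ± 0.031 (SE; limma adjusted p = 0.000124). The transgenic SD was 0.236 of the counting error of these reads, the lowest such ratio of the 10 genes, so it understates the error of a single library. Axl lies at chr7:25756500-25788733 on the minus strand (NM_001190975, mm10), with 4773 exon bases counted.

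Mertk, the TAM receptor of resting and tissue-resident macrophages, went the other way. Wild type libraries held 50.3, 49.2 and 50.8 TPM, and transgenic libraries 43.0, 42.0 and 42.5 TPM. The groups did not overlap, and the fall was small: 50.1 ± 0.826 against 42.5 ± 0.461 TPM (SD, n = 3 each), or 1.18-fold lower. Mertk fell by 0.23 ± 0.033 on the log2 scale (SE; limma adjusted p = 0.00206). It lies at chr2:128698915-128803007, plus strand (NM_008587, mm10). An annotated antisense gene, Gm14011, lies inside it but overlaps none of its exons.

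Because TPM is scaled for length, the TAM receptors can be set against each other within a library. Axl exceeded Mertk by 2.60, 2.75 and 2.78 times in the wild type libraries and by 4.12, 4.20 and 4.17 times in the transgenic ones. Every transgenic ratio was above every wild type ratio, with means of 2.71 ± 0.0990 and 4.16 ± 0.0441 (SD, n = 3 each). A two-sided exact permutation test on log ratios gave p = 0.10, and 3 against 3 libraries can give no smaller p. Axl and Mertk moved in opposite directions without overlap, so this outcome was fixed and adds no support to theirs. The pair was picked after the values were seen. Tyro3, the remaining TAM receptor, averaged 0.302 and 0.492 TPM on a total of 45 and 75 reads per group, and did not pass the filter.

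The bridging proteins also parted. Gas6, the ligand with the highest affinity for AXL, was among the most abundant of the 10 genes, at 221, 218 and 223 TPM in wild type and 232, 241 and 238 TPM in transgenic libraries. The groups did not overlap, yet the ratio of means was only 1.07 (221 ± 2.47 and 237 ± 4.58 TPM, SD, n = 3 each). The difference of 0.10 ± 0.022 on the log2 scale (SE) passed the test (limma adjusted p = 0.0141). That call was lost without transgenic replicate 2 (limma adjusted p = 0.0515) or transgenic replicate 3 (0.0519). In the authors' deposited table, whose lengths are whole gene spans, the log2 fold change of Gas6 was 0.04 (adjusted p = 0.166). Its exons share 34 bases with an exon of Tmem255b on the other strand (Gas6 is at chr8:13465374-13494535, minus strand, NM_019521, mm10).

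Mfge8, which encodes the bridge between phosphatidylserine and alpha-v integrins, was at 12.4, 12.9 and 11.5 TPM in wild type libraries. In transgenic libraries it stood at 7.94, 8.40 and 9.09 TPM. It lay lower in all 3 transgenic libraries, at 8.48 ± 0.577 against 12.2 ± 0.699 TPM (SD, n = 3 each), 1.44-fold. Mfge8 fell by 0.48 ± 0.073 on the log2 scale (SE; limma adjusted p = 0.00271), on a total of 924 and 658 reads per group. Fibroblasts and smooth muscle also express Mfge8, and 6 of 13 tested markers of those cells fell and 0 rose (median -0.24). Pdgfrb stood at 2.01 and 0.867 TPM, while Acta2 stood at 10.8 and 10.3 TPM. The part of these cells in the fall of Mfge8 was not tested.

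Protein S, the other TAM ligand, had a modest rise: Pros1 went from 28.4 ± 1.29 TPM to 33.5 ± 0.467 TPM (limma adjusted p = 0.00844; SD, n = 3 each). The ratio of Gas6 to Mfge8 was 17.9, 16.9 and 19.4 without the transgene and 29.2, 28.7 and 26.1 with it. It was higher in all 3 transgenic libraries (exact two-sided permutation p = 0.10, the smallest possible). That outcome was likewise fixed by Gas6 and Mfge8, which moved apart without overlap, in a pair picked after the values were seen. Among the integrin chains that serve MFG-E8, Itgav stood at 32.9 and 31.6 TPM (limma adjusted p = 0.357) and Itgb3 at 1.43 and 1.25 TPM (0.637). Itgb5 fell from 225 to 209 TPM (limma adjusted p = 0.0345), a call lost with upper-quartile scaling (0.121), with no filter (0.0602) and without any 1 of 5 libraries, all but wild type replicate 2 (0.0724 to 0.104).

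**Figure D2:**
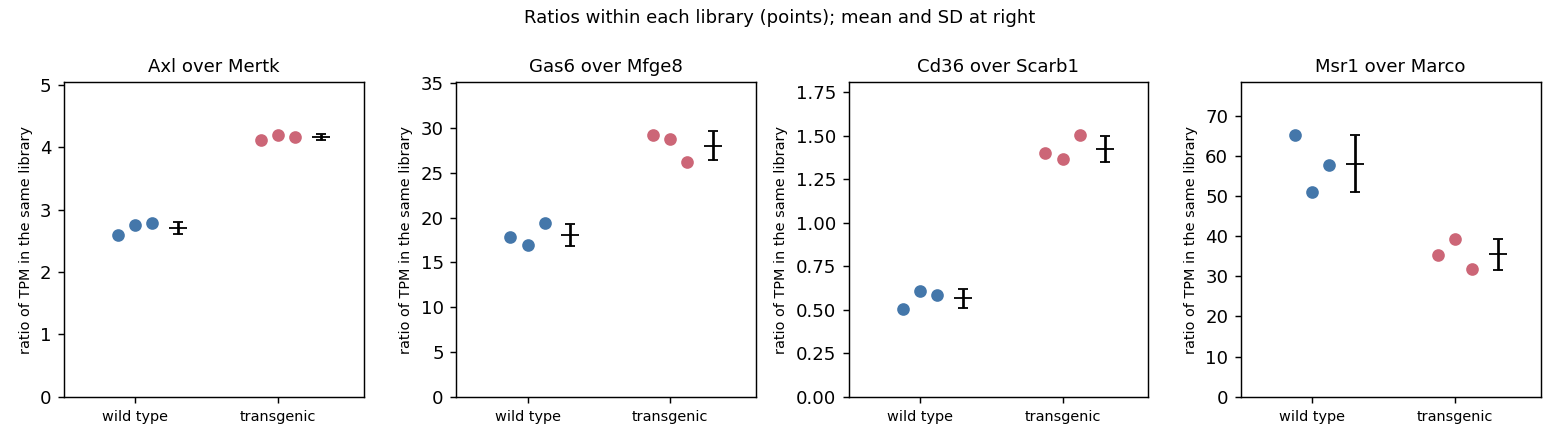
Ratio of the TPM of 2 genes of the same class within each library (vertical axis, from 0) for the 3 wild type (blue) and 3 transgenic (red) libraries, with mean and SD in black. Axl over Mertk, Gas6 over Mfge8 and Cd36 over Scarb1 are higher in every transgenic library, and Msr1 over Marco is lower.

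Timd4, which encodes the phosphatidylserine receptor TIM-4 of long-lived resident macrophages, was low in both groups. The wild type values were 5.49, 5.09 and 4.42 TPM and the transgenic values 8.87, 9.36 and 9.25 TPM. All transgenic libraries were higher, with means of 5.0 ± 0.540 and 9.16 ± 0.258 TPM (SD, n = 3 each), a ratio of 1.83. These values rest on 120 to 146 reads per wild type library and 249 to 266 per transgenic library. The difference was 0.76 ± 0.085 on the log2 scale (SE; limma adjusted p = 0.000624), and log2(TPM + 1) understates the change of a gene this low: with a pseudocount of 0.1 it was 0.87. Timd4 lies at chr11:46810799-46844333, plus strand (NM_178759, mm10). Cd163, a haemoglobin scavenger receptor of resident macrophages, rose alongside it from 89.2 ± 0.565 to 124 ± 1.20 TPM (limma adjusted p = 1.33e-05; SD, n = 3 each).

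Stab1 encodes stabilin-1, a large multidomain receptor that takes up phosphatidylserine-bearing cells and acetylated lipoproteins. It was the most abundant of the 10 genes, at 359, 359 and 364 TPM in wild type and 383, 372 and 374 TPM in transgenic libraries. The groups did not overlap, but the ratio of means was 1.04 and the difference of 0.06 on the log2 scale (95% confidence interval 0.02 to 0.10) missed the threshold (limma adjusted p = 0.0556). It passed with a filter of 5 TPM (0.0487), with upper-quartile scaling (0.0122) and with voom on the recovered reads (2.78e-09). Whichever fit is taken, the size stays at 0.05 to 0.09 over all 12 alternatives. Stab1 is also a gene of some endothelial cells, whose markers Plvap and Cdh5 fell from 15.0 to 5.66 and from 3.93 to 1.55 TPM. Lyve1, listed with them, rose from 86.3 to 95.7 TPM. Prox1 (0.0617 and 0.0727 TPM) and Flt4 (0.197 and 0.181 TPM) of the same list were near 0. Lyve1 stood far above these genes, so its level cannot be read as that of endothelium alone. The part of endothelial cells in the level of Stab1 was not tested. It lies at chr14:31139017-31168641, minus strand (NM_138672, mm10), and shares 112 of its 7924 exon bases with Nt5dc2 on the other strand.

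Among class B receptors, Cd36 carried the largest change. CD36 binds oxidised lipoproteins and apoptotic cells and takes up long-chain fatty acids. Its wild type values were 26.9, 28.7 and 26.3 TPM, and its transgenic values 61.4, 61.8 and 62.5 TPM. The groups were far apart beside their spread (27.3 ± 1.21 and 61.9 ± 0.532 TPM, SD, n = 3 each). The difference in log2(TPM + 1) was 1.15 ± 0.041 (SE; 95% confidence interval 1.06 to 1.25; limma adjusted p = 1.94e-06), and it ranged from 1.13 to 1.19 over 12 alternatives. Only 0.997% of tested genes had an absolute difference at least as large, Cd36 included. The authors' deposited table gives a log2 fold change of 1.11 for a Cd36 transcript with a longer span (adjusted p = 9.43e-146). The TPM row is at chr5:17781690-17849792, minus strand (NM_001159557, mm10).

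Cd36 is also a gene of fat cells, platelets and capillary endothelium, so their markers were read beside it. Adipoq, Plin1 and Lep, which define fat cells, were at 0 to 0.165 TPM as group means. Fabp4, shared by fat cells, endothelium and macrophages, fell from 11.5 to 8.03 TPM, and Lpl, a lipase that macrophages also make, rose from 20.8 to 37.8 TPM. The platelet gene Itga2b was at 0.365 and 0.497 TPM and Gp9 at 0.153 and 0.176 TPM as group means. Pf4, listed with them, stood at 585 and 594 TPM (limma adjusted p = 0.751). That is far above Itga2b and Gp9, so its level cannot be read as that of platelets alone. Ppbp stood at 9.02 and 7.22 TPM (limma adjusted p = 0.127). The 3 of 5 tested erythrocyte and platelet markers that rose were the haemoglobin genes Hbb-bs, Hbb-bt and Hba-a1. Of 10 tested endothelial markers 7 fell and 1 rose (Lyve1). What these cells add to the rise of Cd36 was not tested.

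Scarb1, the receptor for high-density lipoprotein, did not follow Cd36. Wild type libraries had 53.6, 47.3 and 44.8 TPM of it and transgenic libraries 43.9, 45.3 and 41.5 TPM, so the groups overlapped. Their means were 48.6 ± 4.55 and 43.6 ± 1.94 TPM (SD, n = 3 each), with wild type replicate 1 the highest. The log2 difference of -0.15 (95% confidence interval -0.31 to 0.01) did not pass the test (limma adjusted p = 0.155). Voom on the recovered reads called it (limma adjusted p = 0.0198), as did the authors' deposited table (log2 fold change -0.16, adjusted p = 0.00877). Cd36 was below Scarb1 in every wild type library, at 0.502, 0.606 and 0.587 of its TPM. It was above Scarb1 in every transgenic one, at 1.40, 1.36 and 1.505 (exact two-sided permutation p = 0.10, the smallest possible). This pair was also picked after the values were seen. Scarb1 lies at chr5:125277087-125341094, minus strand (NM_016741, mm10).

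Msr1, the class A scavenger receptor of most macrophages, fell about as far in ratio as Mfge8, from a far higher level. Its level was 159, 163 and 164 TPM without the transgene and 111, 116 and 113 TPM with it. The gap between the groups was many times their spread (162 ± 2.85 and 113 ± 2.41 TPM, SD, n = 3 each), a 1.43-fold difference. Msr1 fell by 0.51 ± 0.027 on the log2 scale (SE; limma adjusted p = 1.44e-05). Its row counts 1455 exon bases of 1 transcript (NM_001113326, chr8:39581700-39642678, minus strand, mm10), so its TPM relative to other genes depends on that choice of transcript.

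Marco, the class A receptor for bacteria and particles that is found on few macrophage types, was at 2.43, 3.20 and 2.84 TPM in wild type and 3.16, 2.95 and 3.55 TPM in transgenic libraries. The groups overlapped, on 57 to 90 reads per library. A difference was not detectable at this depth: the log2 difference was 0.14, with a 95% confidence interval of -0.12 to 0.41 (limma adjusted p = 0.423). Marco lies at chr1:120474538-120505024, minus strand (NM_010766, mm10). Msr1 exceeded Marco by 65.2, 51.0 and 57.6 times in wild type and by 35.2, 39.4 and 31.7 times in transgenic libraries.

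**Figure D3:**
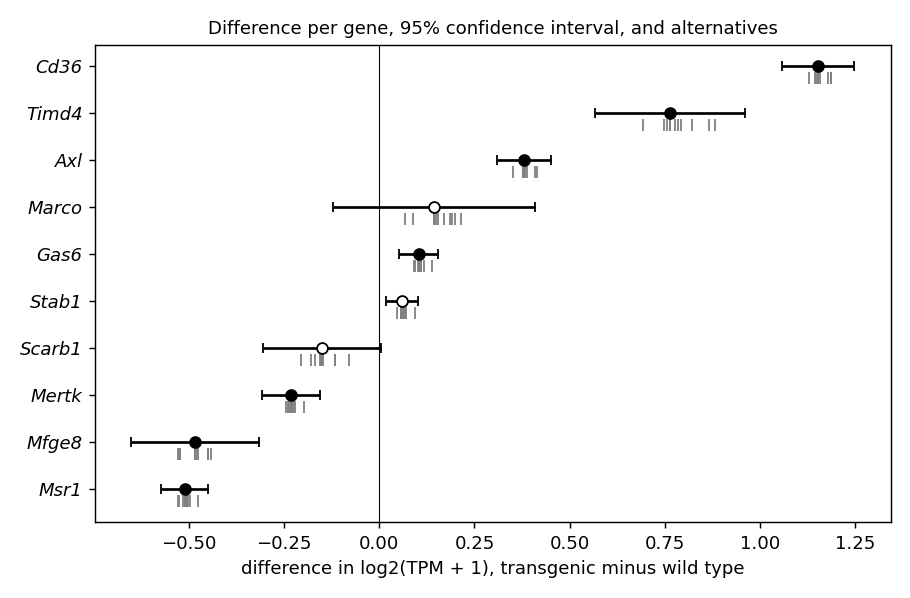
Difference in log2(TPM + 1), transgenic minus wild type (horizontal axis), for each of the 10 genes, as a point with its 95% confidence interval from limma (filled where adjusted p is below 0.05). Grey ticks are the values under the alternative settings. Differences run from -0.51 for Msr1 to 1.15 for Cd36, and no tick of any gene crosses 0.

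The order of the levels changed with these shifts. In wild type libraries it ran Stab1, Gas6, Msr1, Axl, Mertk, Scarb1, Cd36, Mfge8, Timd4 and Marco, and the values of neighbours overlapped only for Mertk and Scarb1. In transgenic libraries Axl stood above Msr1, and Cd36 above Scarb1 and Mertk; values overlapped for Scarb1 and Mertk and for Timd4 and Mfge8. The 10 genes together summed to 1021 to 1033 TPM in wild type and 1071 to 1075 TPM in transgenic libraries. The spread of a gene between libraries was close to its counting error, with a median ratio of 1.00 over 20 gene and group pairs and a ratio above 2 in 3 of them. Pairs of libraries within a group differed over all tested genes (chi-square divided by its degrees of freedom, 2.05 to 2.74), and pairs from unlike groups differed more (16.3 to 17.2). No library was thus a copy of another.

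For the 3 genes with the largest absolute differences in log2(TPM + 1), Cd36, Timd4 and Msr1 (by ratio of means Mfge8 would take the place of Msr1), the tested genes averaging at least 10 TPM with the most similar profile over the 6 libraries were taken by the root mean square difference of centred log2(TPM + 1). For Cd36 they were Reg4 (0.0439), H2-Q6 (0.0810) and Spink4 (0.10). Reg4 and Spink4 are secretory genes of the gut epithelium, and H2-Q6 is a nonclassical class I gene. Those nearest to Timd4 were the complement gene C6 (0.0737), Lpl (0.0751) and H2-Q4 (0.0767). Msr1 was most like Col3a1 (0.0265), Col1a2 (0.0267) and the interferon-induced gene Ifitm2 (0.0286). Col3a1 fell from 51.9 ± 0.840 to 36.1 ± 0.392 TPM (SD, n = 3 each), a collagen gene of fibroblasts at a lower level than Msr1. This likeness mostly restates a shared size of difference between 2 groups.

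The authors' deposited table, whose lengths are gene spans with introns, called 7 of the 10 genes, against 24.4% of 20884 genes with a fold change there. Cd36, Timd4 and Axl were higher, and Msr1, Mfge8, Mertk and Scarb1 lower. Its log2 fold changes for those called were 1.11, 0.89, 0.34, -0.50, -0.55, -0.25 and -0.16. The signs of all 10 were those found here, and the calls differed for Gas6 and Scarb1.

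Other genes of cell uptake were read from lists of the same pathway, which were drawn up with earlier results of these data known. The share beside which the counts of each list stand is 8.71% higher and 13.2% lower over all tested genes. Of 13 tested other scavenger receptors 3 rose and 5 fell (median 0.06). Besides Cd163, Colec12, a collectin-type scavenger receptor, rose from 6.11 ± 0.222 to 8.92 ± 0.516 TPM (SD, n = 3 each). Cd14, the lipopolysaccharide co-receptor that also tethers apoptotic cells, fell from 1785 ± 24.9 to 1457 ± 38.7 TPM, and the large endocytic receptor gene Lrp1 from 98.4 ± 0.727 to 81.0 ± 0.597 TPM. All 4 genes passed at a limma adjusted p of 0.00263 or lower.

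Of 22 tested other apoptotic cell receptors and bridging molecules 5 rose and 8 fell (median -0.07). Thbs1, which encodes thrombospondin-1, a bridge between dying cells and CD36, fell from 874 ± 5.04 to 517 ± 4.82 TPM (limma adjusted p = 8.49e-08; SD, n = 3 each), opposite to Cd36. The calreticulin gene Calr fell from 900.2 to 762 TPM and the integrin gene Itgam from 300.4 to 257 TPM, while C1qa, a complement opsonin gene, rose from 3232 to 3418 TPM. Trem2, a lipid receptor gene, was at 147 and 139 TPM (limma adjusted p = 0.165). On the inhibitory side, Sirpa fell from 442 to 411 TPM (limma adjusted p = 0.00319), and Cd47, its ligand, was at 89.8 and 85.7 TPM (0.367). Neutrophil markers moved in the same libraries, with 9 of 12 tested lower and 0 higher; Itgam and Cd14 are genes neutrophils also express, and that part was not tested.

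Genes that act after binding came next. Of 27 tested genes of engulfment signalling and cargo processing 3 rose and 8 fell (median -0.06). Over all tested genes the shares were 8.71% and 13.2%. The GTPase genes Rac1 and Rac2, which drive the phagocytic cup, fell from 217 to 198 and from 123 to 109 TPM. The lysosomal protease gene Ctsd fell from 1091 to 934 TPM, and Cybb, the oxidase subunit gene used in LC3-associated phagocytosis, rose from 226 to 256 TPM.

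The lipid response to engulfed cells had 8 genes higher and 2 lower of 17 tested (median 0.07). Lipa, which encodes lysosomal acid lipase, rose from 90.0 ± 1.54 to 110 ± 1.69 TPM, and the lipid droplet gene Plin2 from 169 ± 3.39 to 204 ± 1.45 TPM (SD, n = 3 each). Ucp2, a mitochondrial carrier gene, rose from 1066 to 1159 TPM. Nr1h3, which encodes LXR-alpha, a sterol receptor known to induce Mertk, fell with Mertk, from 35.1 ± 2.41 to 24.3 ± 1.39 TPM (limma adjusted p = 0.00111; SD, n = 3 each). Pparg encodes a receptor known to induce Cd36. Pparg was at 11.2 ± 0.937 and 10.7 ± 0.557 TPM (SD, n = 3 each), with no detected change (limma adjusted p = 0.612). The limma confidence interval of its log2 difference, -0.24 to 0.11, left a fall or a small rise of Pparg open. The part of either receptor in the changes of Mertk and Cd36 was not tested.

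Of 10 tested genes of TAM receptor shedding and feedback 2 rose and 3 fell (median -0.06). Stat2, which transmits type I interferon signals, rose from 26.3 to 35.5 TPM (limma adjusted p = 0.000307), in the same direction as Axl. Socs3, a suppressor of cytokine signalling, fell from 609 to 551 TPM. Adam17, the protease known to cut MERTK from the surface, was at 69.5 ± 2.95 and 64.8 ± 1.52 TPM (limma adjusted p = 0.116; SD, n = 3 each). Timp3, an inhibitor of that protease, fell from 4.01 to 2.17 TPM (limma adjusted p = 0.00369) and is also a gene of fibroblasts.

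**Figure D4:**
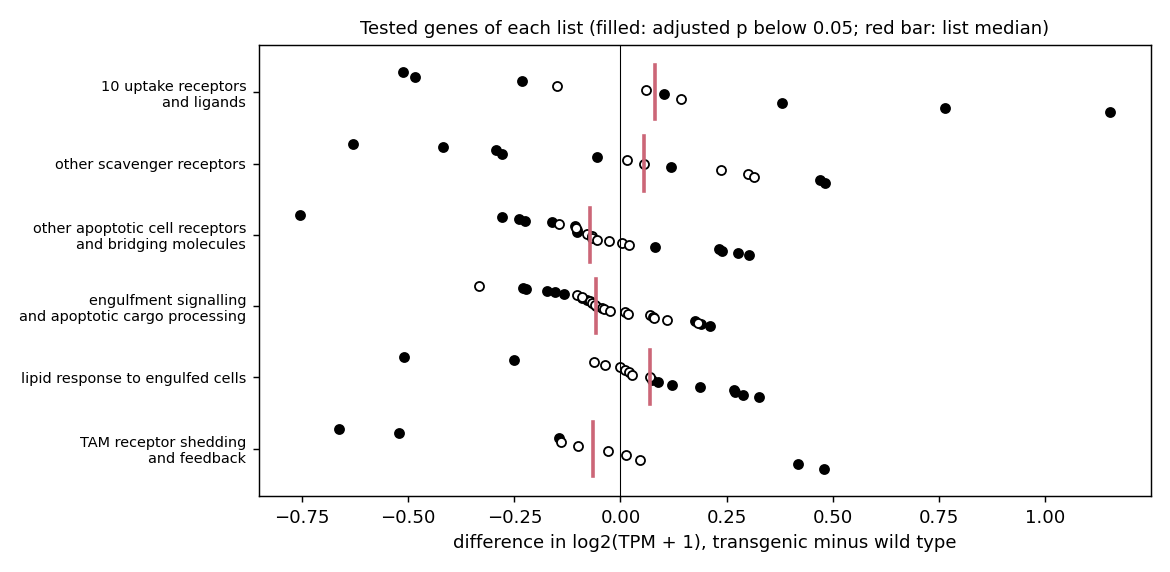
Difference in log2(TPM + 1), transgenic minus wild type (horizontal axis), for the tested genes of the 10 uptake receptors and ligands and of 5 related lists. Each point is a gene, filled where the limma adjusted p is below 0.05, and the red bar is the median of its list. The medians lie between -0.07 and 0.08, while single genes run from -0.76 (Thbs1) to 1.15 (Cd36).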

How the data were processed

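Per the submitters' processing notes, the tools were bcl2fastq, STAR, HOMER 4.11.1 and DESeq2 and the build was mm10; their order and settings: not given in the sources used here. The authors deposited TPM per gene (1 transcript row each), and a comparison table with log2 values, the log2 fold change and the p-value (raw and adjusted). The length column of the comparison table equals end less start, from which counting over gene spans was inferred. The columns of deposited TPM sum to 543612 to 545319, for a reason not tested. Groups came from the sample titles.

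Limma-trend (limma 3.58.1, R 4.3.3) was fitted to log2(TPM + 1) of all 6 libraries, genotype as the single term, for genes averaging 1 TPM or more in either group, with Benjamini-Hochberg adjustment. A difference on this scale understates the change of low genes. Reads were recovered by dividing the product of TPM and exon length by the step of its library; at least 99.9% of values up to 1000 reads came out whole within 0.1 reads. Counting errors cover counting only. The fit was checked on simulated data in which far fewer genes differed than were called here. That check does not cover changes of this breadth. Alternatives were a pseudocount of 0.1, no filter, a filter of 5 TPM, upper-quartile scaling, a replicate block, each library left out, and voom on recovered reads.

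The genes named are the 10 members and Nfil3, up to 4 genes of each pathway list with the lowest p, 14 genes whatever their p, the 3 genes most like each of 3 members, and cell type markers; 1 gene that the rule names is not reported here. The members, lists and tests were chosen with earlier results of these data known, and the ratios after the values were seen. The markers named one by one, the GC, CCAAT and TATA boxes, the AP-1 element and TTANGTAA were also chosen after the data were seen. RefSeq promoter windows matched 8 members by symbol, and GENCODE M21 (GRCm38) gave overlapping genes.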

Additional observations from a re-analysis of the deposited data

How the results depend on the processing

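All 10 genes kept their direction under all 12 alternatives run (11 for Marco, which did not pass a filter of 5 TPM). Cd36, Timd4, Axl, Msr1, Mfge8 and Mertk kept their calls under each, with a highest limma adjusted p of 0.0134, for Mfge8. Gas6 was the called gene that lost its call, without transgenic replicate 2 or 3, with log2 differences of 0.0904 to 0.14 over the alternatives and 0.0904 to 0.12 with each library left out. Stab1 passed with a filter of 5 TPM (0.0598), upper-quartile scaling (0.0948) and voom on the recovered reads (0.0663), and Scarb1 with voom (-0.15). Genes called higher in transgenic libraries numbered 1100, and 704 to 883 with each library left out; the fewest were without transgenic replicate 2 (704, of which 673 are among the 1100) and replicate 3 (721, of which 683 are). The cause was not tested, though fewer libraries entered those fits.

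With the replicate number as a block, 922 genes were higher and 1457 lower, against 1100 and 1666 without it, and it changed no call of the 10 genes. Same-numbered libraries did not deviate together (correlations of -0.01, -0.04 and 0.03), so the numbers gave no pairing. Of 30 other named genes, 349 of 358 alternative fits kept the direction and the side of the threshold, 7 lost a call (all Itgb5) and 2 gained one (both Adam17). Depth limits Marco most, with 203 and 238 reads per group.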
